A study of Mus musculus with 3 samples.

Results

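Amino acid transporter genes of 7 solute carrier families (Slc1, Slc3, Slc6, Slc7, Slc36, Slc38 and Slc43) were described across sorted cells of the mouse pancreas. Members were all genes whose symbol consists of 1 of these family names and a number, on probe sets assigned to a single gene, and they numbered 60 of 19938 measured genes. The 60 genes had 62 probe sets, and Slc38a1 and Slc38a9, which had more than 1, are represented by the probe set of highest average level. Each value is a level, a log2 intensity on 1 array, and a difference of 1 in log2 is a 2-fold difference.

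There were 3 arrays, 1 for each group. Beta cells were pooled from 3 Fbw7 +/+ mice that carried MIP-GFP, a green reporter of insulin-producing cells, and were not treated. Fbw7 KO ductal cells were pooled from 6 mice that carried Ck19-CreERT, the Cre-activated yellow reporter R26-LSL-YFP and 2 floxed alleles (Fbw7 F/F), and Fbw7 WT ductal cells from 6 mice that were Fbw7 +/+ and carried the same Cre and reporter. Tamoxifen was injected on 5 days into both kinds of ductal mice, whose cells were collected 7 days after the final injection, so the cytokeratin 19 promoter and recombination of the reporter decided which cells were sorted. All mice were C57BL/6 and over 6 weeks old, and 30000 sorted cells gave each RNA sample. Beta cells differ from both ductal groups in cell type, reporter and tamoxifen at once. With 1 array per group no difference below has a replicate check and no test was possible, so every comparison describes these arrays only.

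Amino acid carriers move amino acids and related small molecules across the plasma membrane or the lysosomal membrane. Exocrine pancreas cells take up large amounts of amino acids for the synthesis of digestive enzymes, and in beta cells several amino acids act on insulin secretion. Many carriers of the Slc7 family work as light chains that reach the cell surface only when joined to a heavy chain of the Slc3 family, while Slc1, Slc6 and Slc38 carriers are coupled to sodium or other ions and act without such a partner. Fbw7, the product of Fbxw7, selects the proteins that a ubiquitin ligase marks for degradation, among them the regulators Myc and Jun.

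The labels were checked against marker genes. Of 18 duct markers, 15 were above the level floor in beta cells, 16 in Fbw7 KO ductal cells and 15 in Fbw7 WT ductal cells, with median levels of 6.40, 8.40 and 6.54; Cftr, a defining duct channel, was below the floor on all 3 arrays. The floor of an array is the median of its single-gene probe sets, 5.30 in beta cells and 5.24 and 5.23 in KO and WT ductal cells. Of 17 beta cell markers 11 were above it in beta cells, 6 in KO and 5 in WT ductal cells. Ins2 read 11.04 in beta cells, while Pdx1 was below the floor there too. Hormones of other islet cells were also high on the beta cell array. Sst read 11.04, Gcg was nearly as high, Pyy read 10.01 and Ppy 8.32, while Ghrl was lower at 6.41. The level of Ins2 thus does not set this array apart as beta cells alone. Acinar markers had a median of 11.40 in beta cells, 10.50 in KO and 8.31 in WT ductal cells, mesothelial markers 5.68, 9.48 and 9.73, and mesenchymal markers 6.52, 8.41 and 9.53 in the same order. Leukocyte markers were above the floor for 12 of 15 genes in beta cells and 5 in each ductal array, and endothelial markers for 12 of 14 and 5 in each. Each array thus held signal of markers of several cell types. In pooled bulk RNA, fewer cells of a type and less RNA per cell cannot be told apart. The probe set of Fbxw7 with the higher mean read 7.00 in beta cells, 5.71 in KO and 6.32 in WT ductal cells and the other read 4.95 on all arrays; no source used here places them relative to the floxed part, so they do not check the deletion.

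Transcripts of 31 members were above the floor on at least 1 array, and 21 of them on all 3. In beta cells 26 of the 60 members were above the floor, and in KO and in WT ductal cells 27 each. The share was 43.3% in beta cells and 45.0% in each ductal array, against 50.0%, 49.5% and 49.3% of all genes. Slc43 had all 3 of its members above the floor somewhere, Slc38 had 8 of 11, Slc7 had 9 of 15 and Slc6 had 6 of 18, the family that includes the neurotransmitter carriers. The other 29 members were below the floor on every array and are given no fold. Among these were the cystine carrier Slc7a11, listed at 3.79 on all 3 arrays, the heavy chain of the kidney cystine carrier Slc3a1 (4.47 on all 3) and the neutral exchanger Slc1a4 (4.87 in beta cells and 4.32 in each ductal array). Levels of the 29 ranged from 3.17 to 5.26 in beta cells, from 2.23 to 5.09 in KO and from 2.23 to 5.09 in WT ductal cells.

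**Figure D1:**
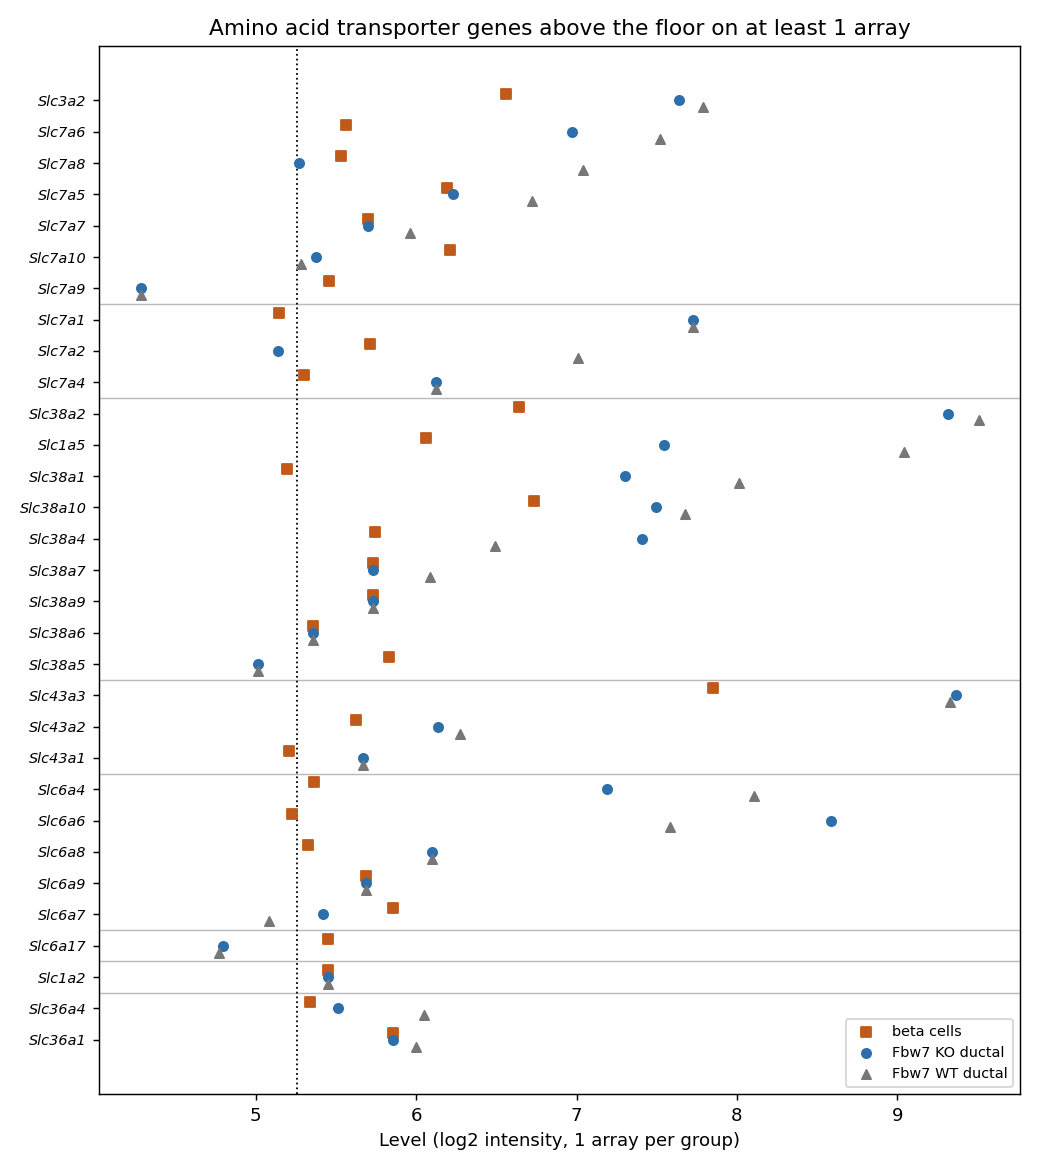
Levels (log2 intensity, horizontal axis) of the 31 members above the floor on at least 1 array, grouped by role between the grey lines and, within a group, ordered by the level in WT ductal cells. Squares are beta cells, circles Fbw7 KO ductal cells and triangles Fbw7 WT ductal cells, 1 array each; the dotted line is the mean of the 3 floors. The squares of Slc38a2, Slc1a5 and Slc43a3 lie well left of the ductal symbols, and those of Slc7a9, Slc7a10 and Slc38a5 lie right of them.

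Identical values were common and bear on every small difference and on some larger ones. Of the 60 members, 29 had exactly the same value in KO and WT ductal cells and 12 had the same value on all 3 arrays. Over all 35556 probe sets, 47.2% were identical in the 2 ductal arrays. Values also recurred between probe sets of 1 array, for 18 members in beta cells, 30 in KO and 31 in WT ductal cells. These were 30.0%, 50.0% and 51.7% of the members, near the 29.4%, 50.1% and 48.5% of all probe sets. Slc38a9, a lysosomal carrier that takes part in amino acid sensing, had 2 probe sets. The one not used read 4.94 in beta cells, below the floor, and 5.32 in both ductal arrays. The mean of both gave -0.19 in beta against WT ductal cells. The probe set used read 5.73 on all 3 arrays, a value held by 19 probe sets in beta cells, 35 in KO and 34 in WT ductal cells. By contrast the value of Slc7a1 in the ductal arrays, 7.73, was held by no other probe set on either of them. Repeated values also lay under larger differences. In beta cells the value of Slc7a8 was held by 147 probe sets and that of Slc7a10 by 60. The value of Slc7a9 was held by 14 in each ductal array. In WT ductal cells the value of Slc38a4 was held by 12 and that of Slc6a6 by 4. The values of Slc1a5 and Slc7a2 were held by no other probe set on any array. No source used here says how such ties arose.

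The comparison of Fbw7 KO with Fbw7 WT ductal cells sets side by side the 2 ductal arrays, which differ in Fbw7 genotype. These arrays also differed in markers of several cell types, as given below. Of the 28 members that could be compared, which had the higher of both levels above the floor, 3 were at least 2-fold lower in KO ductal cells (Slc7a2, Slc7a8 and Slc1a5) and 1 was at least 2-fold higher (Slc6a6). Over all 10035 genes compared, 1.81% were at least 2-fold lower and 1.43% at least 2-fold higher. Among the 28, 15 differences were negative, 5 positive and 8 exactly 0. The median was -0.14, against 0 over all genes, 48.2% of which were identical in both arrays. After quantile normalization the members' median was -0.02.

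The 2 deepest differences were in Slc7 carriers of separate transport systems. Slc7a2, a carrier of arginine, lysine and ornithine, read 5.14 in KO ductal cells and 7.01 in WT ductal cells. Its level in KO ductal cells was below the floor, so it was at least 3.42-fold lower there, and the measured difference was -1.87. Slc7a8, a light chain that exchanges neutral amino acids of many sizes, read 5.27 in KO and 7.04 in WT ductal cells. It lay just above the floor in KO ductal cells and was 3.42-fold lower, a difference of -1.77.

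The glutamine exchanger Slc1a5 read 7.54 in KO and 9.04 in WT ductal cells. It stayed well above the floor in KO ductal cells, 2.83-fold lower, a difference of -1.50. Slc6a6, the taurine carrier, went the other way, at 8.59 in KO and 7.58 in WT ductal cells. It was 2.01-fold higher and lay on the threshold: with each array centred on its median the difference was 0.97 and no longer counted, which left 3 members lower and 0 higher. The differences of Slc7a2, Slc7a8 and Slc1a5 passed 2-fold under both rescalings, at -1.61, -1.53 and -1.27 after quantile normalization and -1.90, -1.81 and -1.53 with centring.

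**Figure D2:**
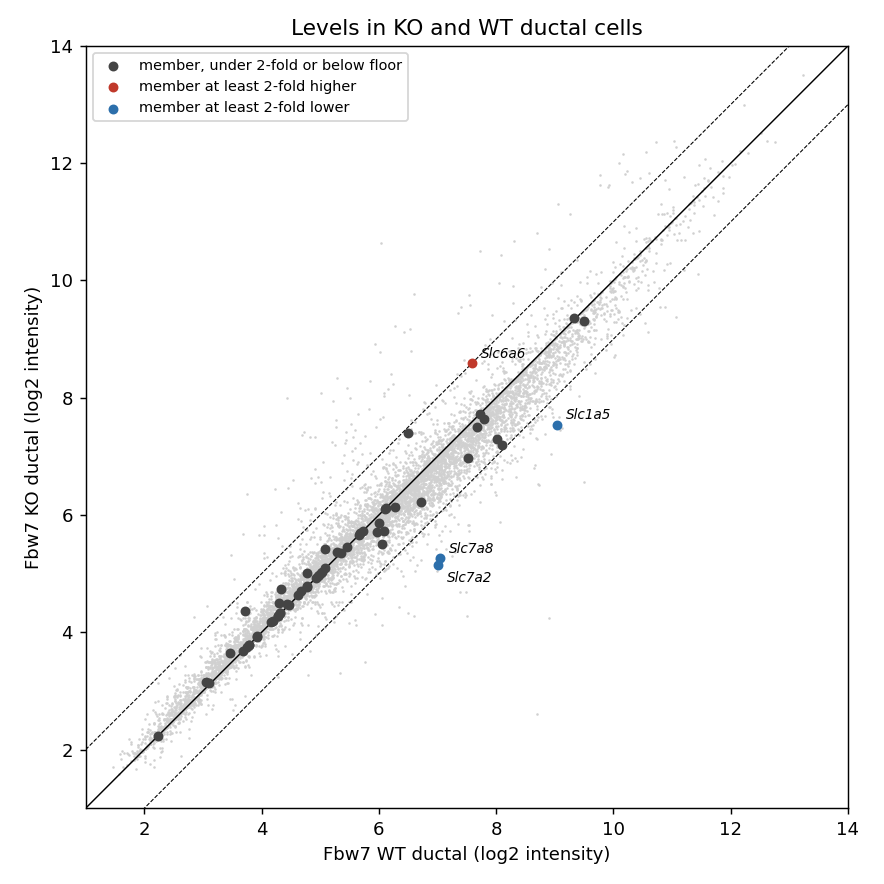
Level of each gene in Fbw7 KO ductal cells (vertical axis) against Fbw7 WT ductal cells (horizontal axis), both in log2 intensity; grey points are all measured genes and large points the 60 members. The solid line marks equal levels and the dashed lines 2-fold differences: Slc7a2, Slc7a8 and Slc1a5 lie below the lower line and Slc6a6 lies on the upper one.

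Close to the threshold but inside it were 2 further carriers. The serotonin carrier Slc6a4 read 7.19 in KO and 8.11 in WT ductal cells, a difference of -0.92. Slc38a4, a sodium-coupled carrier of small neutral amino acids, read 7.41 in KO and 6.49 in WT ductal cells, a difference of 0.92. No other member compared was 1.5-fold or more higher in KO ductal cells, and Slc38a1, a glutamine carrier at 7.30 in KO and 8.01 in WT ductal cells, was the 1 other that was 1.5-fold or more lower. Its other probe set read 5.51 in both ductal arrays, and the mean of both probe sets gave a difference of -0.36, under 1.5-fold. Over all genes compared, 7.25% were 1.5-fold or more lower and 2.81% were 1.5-fold or more higher.

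The heavy chain Slc3a2 and its main light chain Slc7a5, which together import leucine and other large neutral amino acids, differed little. Slc3a2 read 7.64 in KO and 7.79 in WT ductal cells, a difference of -0.15. Slc7a5 read 6.23 in KO and 6.72 in WT ductal cells, a difference of -0.49. Of the 6 members in this group that could be compared, 5 were negative and Slc7a10 was at 0.10, and 1, Slc7a8, passed 2-fold. Slc7a6, a light chain that exchanges cationic against neutral amino acids, was at -0.55, and Slc7a7, another of this kind, at -0.26.

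Among cationic carriers, Slc7a1, the broadly expressed arginine carrier, read 7.73 in both ductal arrays while Slc7a2 was lower in KO ductal cells. Slc7a4 was identical too, at 6.13 in both. Among sodium-coupled neutral carriers, Slc38a2, a carrier that many cells raise when amino acids run short, read 9.31 in KO and 9.51 in WT ductal cells. Slc38a10 was at -0.18 and Slc38a7, a lysosomal glutamine carrier, at -0.35. The Slc43 genes ranged from -0.14 to 0.04. Slc43a1 read 5.67 in both ductal arrays and 5.21, below the floor, in beta cells. Slc43a3, known as a carrier of purine bases rather than amino acids, read 9.36 in KO and 9.33 in WT ductal cells. The creatine carrier Slc6a8 (6.10) and the glycine carrier Slc6a9 (5.69) read the same in both ductal arrays. The proton-coupled lysosomal carrier Slc36a1 read 5.86 in KO and 6.00 in WT ductal cells, and Slc36a4 was at -0.54.

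Markers of other cells moved between the same arrays. In KO against WT ductal cells, 9 of 16 duct markers and 11 of 15 acinar markers above the floor were at least 2-fold higher. In the same comparison 1 acinar marker, Ctrc, was at least 2-fold lower, at -1.21, and 5 of 13 mesenchymal markers were at least 2-fold lower and 0 higher. Of 5 leukocyte markers 1 was at least 2-fold lower, and of 15 mesothelial markers 0 were 2-fold apart. Slc7a2 is itself on the list of alpha cell markers used here, of which 3 could be compared. The other 2 read higher in KO than in WT ductal cells, Gcg at 0.97, with its level in WT ductal cells below the floor, and Ttr at 2.09. The part of these cell types in the differences of Slc7a2, Slc7a8, Slc1a5 and Slc6a6 was not tested.

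The comparison of beta cells with Fbw7 WT ductal cells sets 2 sorted samples side by side, and the beta cell array also held hormones of other islet cells. Of 31 members compared, 11 were at least 2-fold lower in beta cells and 1 was at least 2-fold higher. Over all 11139 genes, 25.8% were at least 2-fold lower and 6.37% at least 2-fold higher. After quantile normalization 8 members were lower and 2 higher, against 17.9% and 10.6% of all genes, and with centring 13 were lower and 0 higher, against 30.7% and 4.0%. The members' share at least 2-fold lower, 35.5%, is read against that background. The median difference was -0.71 over the members and -0.11 over all genes. It was -0.40 over the members and 0.09 over all genes after quantile normalization, and -0.92 and -0.31 with centring. It was 0 over both without a floor, and -1.73 over the members and -0.69 over all genes with the 75th percentile as floor. The beta cell array had a narrower spread of values, with an SD over probe sets of 1.57, against 1.97 in KO and 2.02 in WT ductal cells. Quantile normalization moved the all-gene median up by 0.19 and centring moved it by -0.20, and single members could move by more, as Slc43a3 did.

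Of 9 neutral exchangers and sodium-coupled neutral carriers compared, 3 were at least 2-fold lower in beta than in WT ductal cells and 0 higher, with a median of -0.75. Slc1a5 read 6.06 in beta cells and 9.04 in WT ductal cells, 7.90-fold lower in beta cells. Slc38a2 read 6.64 in beta cells and 9.51 in WT ductal cells, 7.28-fold lower in beta cells. Slc38a1 read 5.20 in beta cells, below the floor, and 8.01 in WT ductal cells, so it was at least 6.55-fold lower. Its other probe set was closer, at 4.97 in beta cells and 5.51 in WT ductal cells, and the mean of both gave -1.68, against -2.82 for the probe set used. All of these stayed more than 2-fold lower after quantile normalization, at -2.32, -1.93 and -2.53. Slc38a4, Slc38a7 and Slc38a10 were under 2-fold apart, at -0.75, -0.35 and -0.94, and Slc38a5, also a glutamine carrier of the Slc38 family, read 5.83 in beta cells and 5.02, below the floor, in WT ductal cells, at least 1.52-fold higher in beta cells. Slc38a5 is on the list of alpha cell markers.

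Of 3 cationic carriers compared, 2 were at least 2-fold lower in beta cells, Slc7a1 and Slc7a2. Slc7a1 read 5.14 in beta cells, below the floor, and 7.73 in WT ductal cells, at least 5.36-fold lower. Slc7a2 read 5.71 in beta cells and 7.01 in WT ductal cells, a difference of -1.30 that was -0.98 after quantile normalization. Slc7a4 stood at the floor in beta cells (5.30) and at 6.13 in WT ductal cells, a difference of -0.82.

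Heavy chain and light chain genes did not move as 1 group. Of 7 compared, 3 were at least 2-fold lower in beta cells (Slc3a2, Slc7a6 and Slc7a8), 1 was at least 2-fold higher (Slc7a9) and 3 were under 2-fold. Slc3a2 read 6.56 in beta cells and 7.79 in WT ductal cells, a difference of -1.23 that was -0.40 after quantile normalization. In rank it stood above 88.9% of genes in beta cells and 91.3% in WT ductal cells. Its partner Slc7a5 was at -0.53, with 6.20 in beta cells and 6.72 in WT ductal cells. Slc7a6 was 3.88-fold lower and Slc7a8 2.85-fold lower. Slc7a9, the light chain of the kidney cystine carrier, read 5.46 in beta cells, just above the floor, and 4.28 in WT ductal cells, below it. The measured difference was 1.17, at least 1.17-fold against the floor, and its heavy chain Slc3a1 was below the floor on every array. Slc7a10, a carrier of small neutral amino acids and D-serine, read 6.21 in beta cells and 5.28 in WT ductal cells, a difference of 0.93.

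The Slc6 family held 2 large differences. The serotonin carrier Slc6a4 read 5.36 in beta cells, near the floor, and 8.11 in WT ductal cells, 6.70-fold lower in beta cells. The taurine carrier Slc6a6 read 5.23 in beta cells, below the floor, and 7.58 in WT ductal cells, at least 4.86-fold lower. Slc6a7, a proline carrier known from brain, read 5.85 in beta cells and 5.09 in WT ductal cells, at least 1.54-fold higher, and Slc6a17, a vesicular carrier known from neurons, read 5.45 in beta cells and 4.77 in WT ductal cells, at least 1.16-fold higher. Slc6a9 was identical on all 3 arrays. Slc43a3 read 7.85 in beta cells and 9.33 in WT ductal cells. That difference was -1.47 as deposited and -0.28 after quantile normalization, and its rank was nearly the same, above 98.1% of genes in beta cells and 98.0% in WT ductal cells.

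Members below the floor on every array leaned the other way. Of these 29, 20 read higher in beta cells than in WT ductal cells, 0 lower and 9 the same, with a median of 0.18. The same lean was seen over all 8634 genes below the floor on every array, of which 68.4% read higher in beta cells, 3.97% lower and 27.6% the same.

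**Figure D3:**
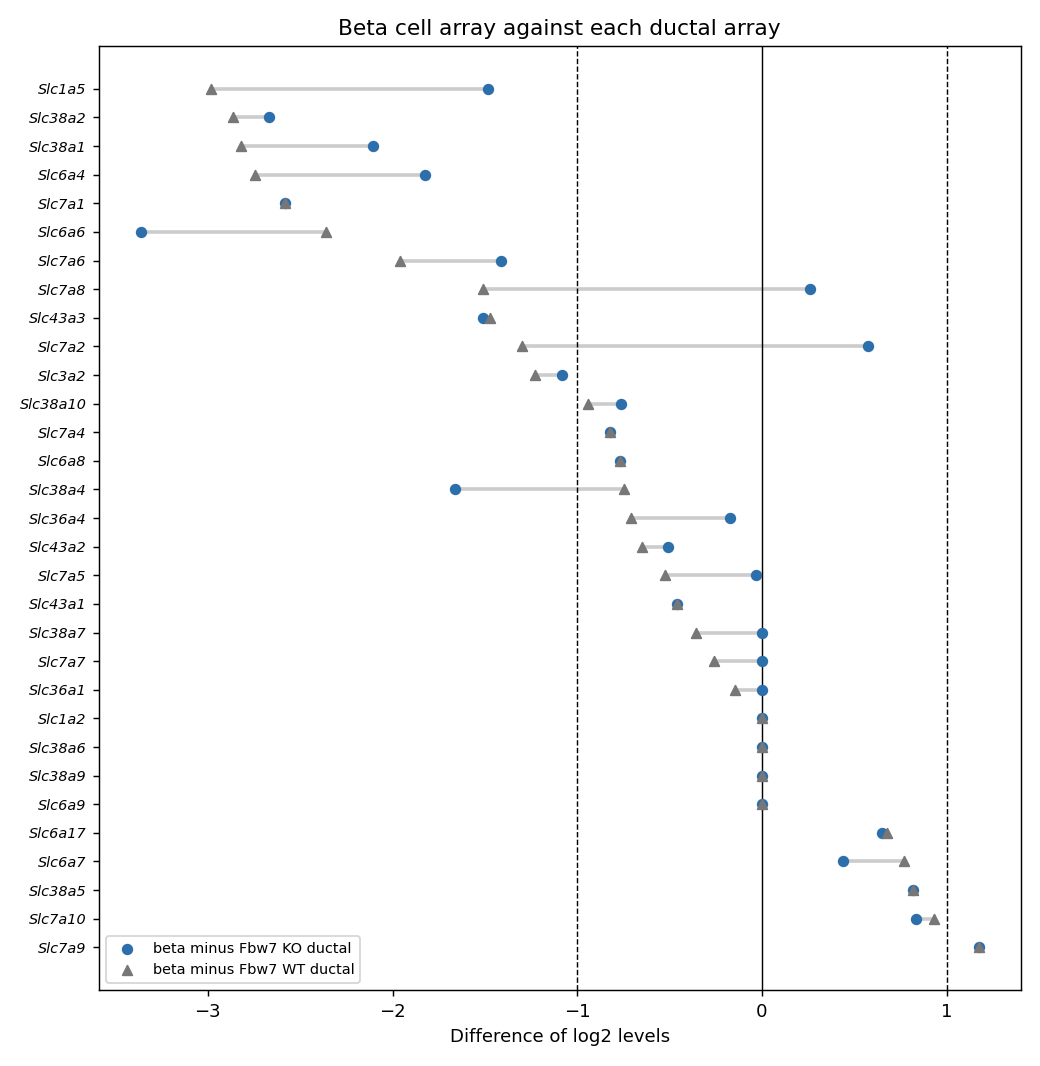
Differences of log2 levels (horizontal axis) between beta cells and Fbw7 KO ductal cells (circles) and between beta cells and Fbw7 WT ductal cells (triangles) for the 31 members above the floor on at least 1 array; both use the same beta cell array. Dashed lines mark 2-fold. The symbols lie far apart for Slc7a8, Slc7a2, Slc1a5, Slc6a6, Slc6a4 and Slc38a4, and together for Slc7a1 and Slc43a3.

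Against Fbw7 KO ductal cells, 10 of 31 members were at least 2-fold lower in beta cells and 1, Slc7a9, at least 2-fold higher. Over all 11095 genes, 23.0% were at least 2-fold lower and 5.13% at least 2-fold higher. Slc7a9 read 5.46 in beta cells and 4.28 in KO ductal cells, below the floor, against which it was at least 1.16-fold higher, and with low levels raised to the floor 0 members were 2-fold higher. After quantile normalization 8 members were lower and 2 higher, against 16.9% and 9.38% of all genes, and with centring 10 were lower and 0 higher, against 27.2% and 3.01%. The members' median was -0.17, against -0.05 over all genes. Slc6a6 had the largest difference of any member, with 5.23 in beta cells and 8.59 in KO ductal cells, at least 9.74-fold lower. Slc38a4, with 5.74 in beta cells and 7.41 in KO ductal cells, was 3.17-fold lower. Slc7a2 and Slc7a8 were not lower in beta cells here: Slc7a2 read 5.71 in beta cells and 5.14 in KO ductal cells, and Slc7a8 read 5.53 in beta cells and 5.27 in KO ductal cells. Slc1a5 was 2.79-fold lower in beta cells, with 6.06 against 7.54 in KO ductal cells. Slc7a5 was at -0.03. This comparison shares the beta cell array with the one before it, and the values are given side by side only.

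Markers of other cells moved in these comparisons too. Beta cells against WT ductal cells had 6 of 16 duct, 14 of 15 mesothelial and 11 of 13 mesenchymal markers at least 2-fold lower. In the same comparison 12 of 15 acinar, 6 of 12 leukocyte and 4 of 12 endothelial markers were at least 2-fold higher. The median difference of the duct markers was -0.21 against WT and -2.25 against KO ductal cells. Beta cells against KO ductal cells had 15 of 17 duct, 15 of 15 mesothelial and 11 of 13 mesenchymal markers at least 2-fold lower, and 5 of 15 acinar, 7 of 12 leukocyte and 4 of 12 endothelial markers at least 2-fold higher. Their part in the differences of the carriers was not tested.

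Other genes of amino acid handling were set beside the carriers. Amino acid response genes, which cells switch on through the factor Atf4 when amino acids are scarce, had 1 of 26 at least 2-fold higher and 0 lower in KO against WT ductal cells, with a median of 0 and 13 of them identical. Cbs, an enzyme of cysteine synthesis, read 6.86 in KO and 5.63 in WT ductal cells, and Nupr1, a stress-induced nuclear protein, was at 0.70. The lowest were Cth, the next enzyme of that pathway, at -0.97 with its level in KO ductal cells below the floor, and Phgdh, the first enzyme of serine synthesis, at -0.54. Atf4 itself read 8.03 in KO and 8.01 in WT ductal cells, and Asns, the asparagine synthetase, was the same in both at 6.73; these 2 were named after their values had been seen. Genes of amino acid sensing and mTORC1 had 1 of 25 at least 2-fold lower in KO ductal cells, Sesn3, a stress-induced inhibitor of mTORC1, at 6.22 in KO and 7.73 in WT ductal cells, and 0 higher. Sesn1, of the same family, was at -0.63, Lamtor5, a subunit of the lysosomal anchor of mTORC1, at 0.11, and Tsc2, an inhibitor of mTORC1, was identical on all 3 arrays at 6.08.

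Of 12 glutamine, glutamate and glutathione genes, 1 was at least 2-fold higher in KO than in WT ductal cells, and 2 passed 2-fold in the other direction. The shares over all genes compared were 1.43% higher and 1.81% lower. Anpep, a peptidase of the cell surface, read 7.91 in KO and 6.89 in WT ductal cells, and Gclc, the catalytic subunit of the first enzyme of glutathione synthesis, was at 0.35. Got1, the cytosolic aspartate aminotransferase, read 5.24 in KO ductal cells, below the floor by less than the last digit shown, and 6.72 in WT ductal cells, and Abat, an enzyme that breaks down GABA, was at -1.19. Cytosolic aminoacyl-tRNA synthetase genes had 0 of 18 at 2-fold in either direction, from Hars at -0.70 and Farsb at -0.60 to Rars at 0.02 and Wars at 0.28. Other amino acid carriers outside the 7 name patterns, such as mitochondrial and vesicular ones, had 11 of 29 comparable and 0 at 2-fold; Slc25a12, a mitochondrial aspartate and glutamate carrier, was lowest at -0.88, followed by Slc25a44, a mitochondrial carrier of branched-chain amino acids, at -0.52, with Slc25a15, the mitochondrial ornithine carrier, highest at 0.14 and Slc25a39 identical in both ductal arrays at 7.94.

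In beta against WT ductal cells, 6 of 25 sensing and mTORC1 genes, 4 of 12 glutamine, glutamate and glutathione genes, 6 of 18 synthetase genes, 2 of 12 other carriers and 2 of 26 response genes were at least 2-fold lower. Over all genes compared, 25.8% were at least 2-fold lower and 6.37% at least 2-fold higher. In the same comparison 1 response gene, Nupr1 (10.93 in beta cells and 8.82 in WT ductal cells), and 0 genes of the other lists were at least 2-fold higher. The list medians were -0.23, -0.52, -0.81, 0 and -0.04, set against -0.71 for the carriers and -0.11 over all genes.

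**Figure D4:**
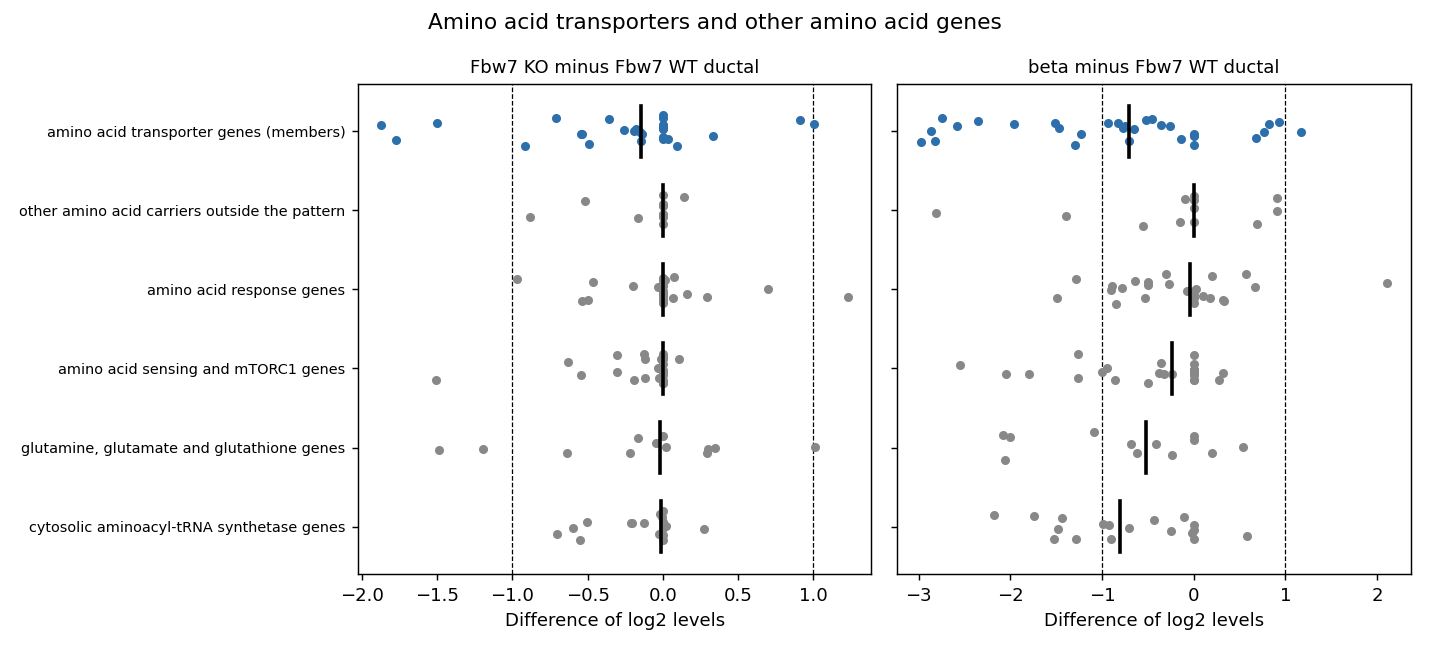
Differences of log2 levels (horizontal axes) for members (top row, blue) and for other lists of amino acid genes (grey), between Fbw7 KO and Fbw7 WT ductal cells (left) and between beta and Fbw7 WT ductal cells (right). Each point is 1 gene that could be compared, black bars are medians and dashed lines mark 2-fold; on the left the points of the 3 transporters below the lower line are Slc7a2, Slc7a8 and Slc1a5.

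Start-site sequences of 3 members are shown to set promoters beside these levels: Slc7a8, lower in KO than in WT ductal cells, Slc38a2, lower in beta cells than in both ductal arrays, and Slc7a1, identical in both ductal arrays and lower in beta cells. Each is the 250 bases before the first start listed by RefSeq (GRCm38.p6), on the minus strand, 5′ to 3′: chr14:54781887-54782136 for Slc7a8, chr15:96699729-96699978 for Slc38a2 and chr5:148399905-148400154 for Slc7a1. Capitals mark a match to 1 of 3 motifs, searched on both strands: TGATGNAAN (the amino acid response element bound by Atf4), CACGTG (the E-box bound by Myc) and TGANTCA (the AP-1 site bound by Jun).
Slc7a8: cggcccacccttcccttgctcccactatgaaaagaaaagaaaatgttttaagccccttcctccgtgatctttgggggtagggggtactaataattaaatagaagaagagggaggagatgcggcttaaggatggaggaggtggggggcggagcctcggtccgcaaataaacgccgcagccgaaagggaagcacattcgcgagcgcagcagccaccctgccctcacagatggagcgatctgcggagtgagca
Slc38a2: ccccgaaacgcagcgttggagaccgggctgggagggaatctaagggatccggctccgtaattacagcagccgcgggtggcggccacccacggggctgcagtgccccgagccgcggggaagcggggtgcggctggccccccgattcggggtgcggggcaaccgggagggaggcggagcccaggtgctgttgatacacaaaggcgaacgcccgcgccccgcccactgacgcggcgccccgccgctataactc
Slc7a1: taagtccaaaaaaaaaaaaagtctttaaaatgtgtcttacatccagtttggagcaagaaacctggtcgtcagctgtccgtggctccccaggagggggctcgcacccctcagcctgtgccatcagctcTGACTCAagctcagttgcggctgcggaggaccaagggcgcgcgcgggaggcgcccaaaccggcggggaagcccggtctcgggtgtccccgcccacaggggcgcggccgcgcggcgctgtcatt

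The window of Slc7a1 held 1 AP-1 match, while those of Slc7a8 and Slc38a2 held none of the 3 motifs. The base content differed, with 55.6% G and C for Slc7a8, 72.0% for Slc38a2 and 62.4% for Slc7a1. The RefSeq table held windows for 43 of the 60 members, 64 windows in all. It held none for Slc1a5, Slc7a2 and Slc6a6, which were at least 2-fold apart between the ductal arrays. Of the 64 windows, 4 (6.25%) held the amino acid response motif, in Slc7a7, Slc7a11 and Slc6a21, against 3.44% of all 32851 windows. E-box matches were in 9 windows (14.1%), against 6.02% of all windows, and AP-1 matches in 9 (14.1%), against 6.75%. A gene can have more than 1 window, so these are shares of windows and not of members. Many members with a match could not be compared. Of those with an E-box, Slc1a6, Slc1a7, Slc6a3, Slc6a16 and Slc7a14 were below the floor on every array. Slc6a21 and Slc7a11, with the amino acid response motif, were below it too. The others with these 2 motifs, Slc36a1, Slc38a5, Slc38a7, Slc43a1 and Slc7a7, were under 2-fold apart wherever they were compared. Among members with an AP-1 match, only Slc7a1 reached 2-fold, in the comparisons with beta cells, and it was identical in both ductal arrays. Of the others with this motif, Slc3a1, Slc6a5, Slc6a12 and Slc6a14 were below the floor on every array, and Slc6a17 was below it in both ductal arrays. Between the ductal arrays only Slc7a1, Slc38a7 and Slc38a10 could therefore be compared. Any part of Myc or Jun in the differences was not tested. In 0 of the members' windows did matches of different motifs overlap. A match is a description of letters and says nothing of binding.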

How the data were processed

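RNA (18 ng) was amplified with a NuGEN kit and labelled with biotin, per the labels' protocols. The authors deposited log2 intensities for 35556 probe sets on 3 arrays, summarised with RMA per the submitters' processing notes; no source used here gives its version or the set of arrays it was run on. The platform annotation gave 1 gene for 21789 probe sets, several for 1621 and none for 12146. All 60 members matched RefSeq by gene ID. For a gene with several probe sets, the one with the highest mean was used. A gene's levels were compared only if the larger exceeded the floor of its array, the median over probe sets with 1 gene. Where 1 level lay below its floor, "at least" gives the fold against the floor. Named were members at least 2-fold apart in any comparison, 20 carriers fixed by role, and the 2 highest and 2 lowest genes of each pathway list; other members are named for their level. Members, lists, motifs and printed promoters were chosen with earlier results of these data known. The alternatives tried were omitting the floor, the 75th percentile as floor, levels raised to the floor, quantile normalization, centring, the mean of probe sets and a 1.5-fold threshold. Steps were tested on simulated data. The number of arrays limits the precision. Python 3.11.15, numpy 2.4.6, pandas 2.3.3 and matplotlib 3.10.9 were used.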

Additional observations from a re-analysis of the deposited data

How the results depend on the processing

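No direction of a member counted as at least 2-fold apart reversed under raising of low levels, quantile normalization, centring or the mean of probe sets. The count lower in KO than in WT ductal cells was 3 under every alternative except the 1.5-fold threshold, which gave 5 (7.25% of all genes), and the count higher, which rests on Slc6a6, was 0 with centring (1.36%) and 2 at 1.5-fold (2.81%). The count lower in beta than in WT ductal cells was 17 at 1.5-fold (36.1% of all genes), 8 after quantile normalization (17.9%) and 13 with centring (30.7%); Slc3a2, Slc43a3 and Slc7a2 fell under 2-fold after quantile normalization. The count higher in beta than in WT ductal cells, which rests on Slc7a9, was 2 without a floor (7.41% of all genes), 0 with the floor at the 75th percentile (6.21%), 0 when low levels were raised to the floor (2.94%), 2 after quantile normalization (10.6%), 0 with centring (4.0%) and 5 at 1.5-fold (14.0%). The count higher in beta than in KO ductal cells was 0 with the floor at the 75th percentile (5.05%), 0 when low levels were raised to the floor (2.33%), 2 after quantile normalization (9.38%), 0 with centring (3.01%) and 4 at 1.5-fold (13.0%). The members' median in beta against KO ductal cells was 0 without a floor and -1.59 with the 75th percentile as floor, against 0 and -0.54 over all genes. The cause was not tested. No paired analysis was possible because each group has 1 array. Signals near the floor, as for Slc7a9, limit what these arrays can show.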
